A study of Mus musculus with 18 samples.

Results

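At 5 days after ischemia/reperfusion (I/R), DKO hearts carried higher levels of transcripts for collagen, matrix glycoproteins and macrophage proteins than DKO hearts after sham surgery. Transcripts for mitochondrial fuel use had lower values, few of which passed the test in the fit used throughout, a count that depended on the fit. DKO mice are Camk2g loxP/loxP; Camk2d loxP/loxP; α-MHC-Cre animals, in which Cre driven by the cardiomyocyte-specific α-MHC promoter removes both CaMKII genes from cardiomyocytes, while other heart cells keep them. The comparison uses 6 of the 18 arrays of the study, chosen by their labels: 3 arrays of DKO left ventricular myocardium after sham surgery and 3 of the ischemic area of the DKO left ventricle after 60 min of ischemia and 5 days of reperfusion. The mice had a mixed 129/Sv and C57BL/6 background and underwent surgery at 10–15 weeks of age, and the sources used here do not give the time at which sham hearts were taken. The I/R arrays hold ischemic area only, so that region and surgery cannot be told apart. The other groups used below are DKO hearts 1 day after I/R and the FFFF controls, which the labels call wild-type. FFFF mice carry the same 4 floxed alleles without Cre. Their arrays come from sham hearts and from days 1 and 5 of reperfusion. Each of these groups holds 3 arrays. The FFFF arrays of day 1 enter value ranges of single genes, figures that show all arrays and the model of 6 groups.

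CaMKII is a calcium/calmodulin-dependent kinase that phosphorylates calcium handling proteins, ion channels and transcriptional regulators in cardiomyocytes. A reperfused infarct heals in overlapping phases. Neutrophils enter first, monocytes and macrophages then clear dead cells, and activated fibroblasts fill the defect with granulation tissue whose collagen is cross-linked into a scar. Cardiomyocytes that survive at its edge typically lower genes of fatty acid oxidation and raise a set of stress and fetal genes.

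Each value below is a log2 expression value of 1 gene on 1 array, each difference is the 5-day mean minus the sham mean on that scale, and a gene is said to rise or fall where limma's adjusted p over all 24479 features was under 0.05. The labels number the arrays without naming animals, so that p-values measure the spread between these arrays, which may be technical. Within the sham group, arrays correlated at 0.992 to 0.993 over all features, within the 5-day group at 0.986 to 0.993 and between the groups at 0.951 to 0.981. Xist and Y-linked transcripts marked replicates 1 and 2 of the 5-day group as male hearts, replicate 3 and all 3 sham arrays as female. Sex therefore moved with surgery in 2 of 3 arrays, and most counts below are also given with sex as a covariate, a fit in which the 5-day arrays of FFFF, also 2 male and 1 female, help to set the size of the sex effect. The cardiomyocyte genes Myh6, Actc1, Tnnt2, Tnni3, Myl2, Mybpc3 and Ttn had values of at least 12.13 on all 6 arrays. Of 4 atrial markers, Myl4, Myl7 and Sln had values of at most 4.83, and Nppa, which the stressed ventricle also makes, had values of at least 13.68.

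Camk2d, which encodes the main cardiac CaMKII isoform, had log2 values of 9.17, 9.27 and 9.10 in the sham arrays and 8.42, 8.42 and 8.87 in the 5-day arrays. Camk2g had 5.46, 5.72 and 5.87 after sham surgery and 6.46, 6.34 and 6.04 at 5 days. The arrays of the groups did not overlap for either gene, lower at 5 days for Camk2d and higher for Camk2g, but neither difference passed the test, at -0.61 (standard error 0.32, adjusted p = 0.279) and 0.59 (standard error 0.26, adjusted p = 0.194). The 9 FFFF arrays ranged from 9.27 to 9.85 for Camk2d and from 6.76 to 7.70 for Camk2g. All 6 DKO arrays lay below that range for Camk2g, and all but sham replicate 2, which reached its lower end, for Camk2d. Both transcripts are also made by cells that Cre did not target, and fewer cells of a type and less RNA per cell cannot be told apart in bulk tissue, here or in any result below.

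At 5 days, 791 genes rose (3.23% of the features tested) and 696 fell (2.84%), 6.07% in all. Rises were larger than falls: 423 of the rising genes rose by at least 1 and 157 of the falling genes fell by at least 1. The median difference over all features was -0.02, with quartiles of -0.15 and 0.09. Of the called genes, 790 rising and 692 falling genes had sham and 5-day arrays that did not overlap, beside 33% of all features without overlap, 14.8% higher and 18.2% lower. Most calls depended on the arrays and on the fit. With array weights, which count less even arrays for less, 4528 genes were called, and 3825 with the compared groups alone. With sex as a covariate 527 genes were called (362 rose and 165 fell, 408 of them shared with the 1487), and with the female arrays alone, which leaves a single 5-day array assumed to vary like the other groups, 19. Leaving out 1 array gave 167 calls without 5-day replicate 1, 367 without 5-day replicate 2, 225 without sham replicate 2, 299 without sham replicate 1, 1026 without sham replicate 3 and 1623 without 5-day replicate 3. Of 131 called genes named by rule, all 131 kept their sign in each of these fits, none moved by more than 1.5 times when an array was left out, and 41 kept their call whichever array was left out. These genes were chosen by their differences on the same arrays, and nearly all called genes had groups without overlap. Leaving out arrays could therefore hardly turn a sign, and the kept signs are no independent support. Of the 131, 1 moved by more than 1.5 times with sex as a covariate and 22 with the female arrays alone, while 112 were smaller there than with all 6 arrays.

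**Figure D1:**
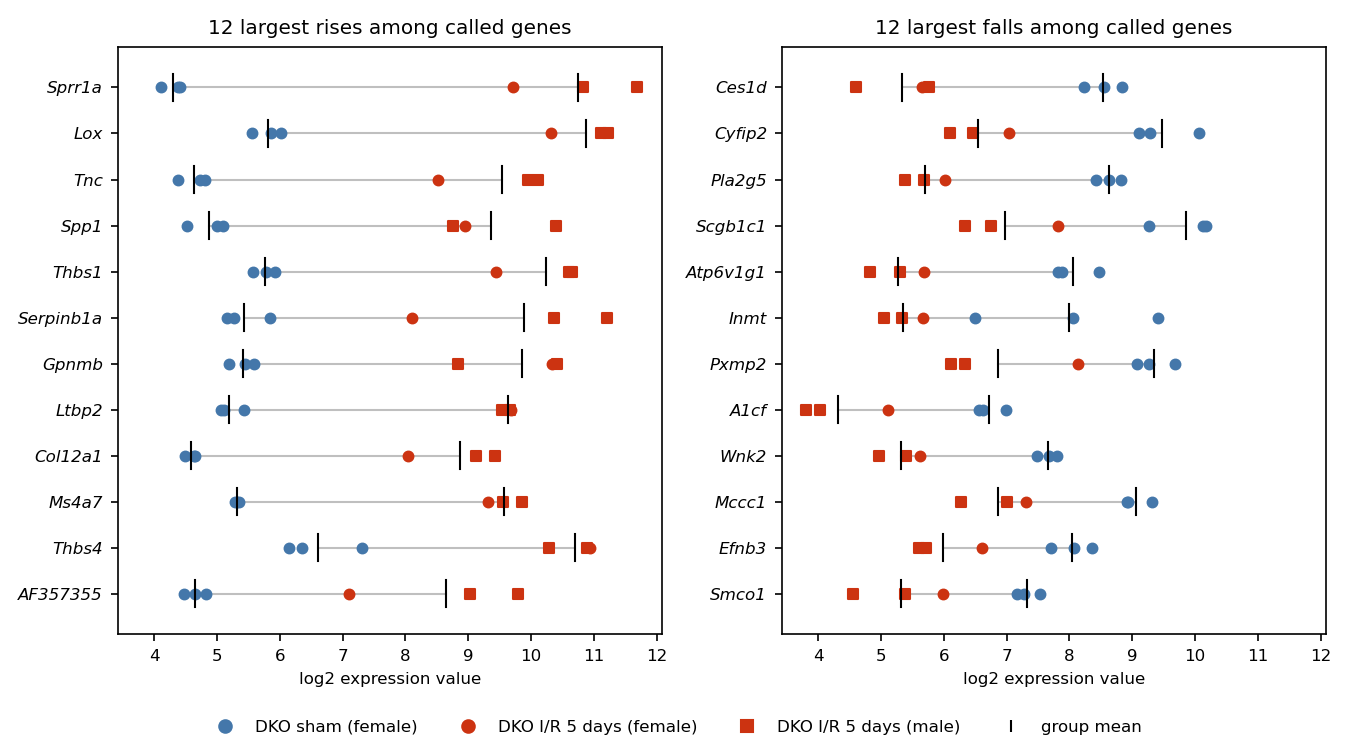
Log2 expression value (horizontal axis) of the 12 called genes with the largest rise and the 12 with the largest fall, 1 point per array, with blue for DKO sham, red for DKO I/R 5 days, squares for male hearts and a black tick for each group mean. The genes were chosen among those whose 3 red points lie on one side of the 3 blue points. The female 5-day array is the red point nearest to sham for 8 of the 12 rising and 11 of the 12 falling genes.

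Sprr1a (chromosome 3), a small proline-rich protein of the cornified cell envelope that is also known as a stress-induced gene of cardiomyocytes, had the largest rise. Its values were 4.41, 4.38 and 4.11 in the sham arrays and 10.83, 11.69 and 9.71 at 5 days, so that each 5-day array lay more than 5 log2 units above each sham array. The rise was 6.44 (standard error 0.80, adjusted p = 0.00121), and it kept its call in every fit with an array left out (highest adjusted p 0.0106). The difference from sham was 6.19 on day 1 after I/R (adjusted p = 0.0019). The 250 bases before the Sprr1a start, from RefSeq on GRCm38.p6 (minus strand, chr3:92485882-92486131), are shown because this gene led the list. They hold the AP-1 motif TGANTCA, searched on both strands, 2 times and the TATA box TATAAA once, all in capitals.
Sprr1a: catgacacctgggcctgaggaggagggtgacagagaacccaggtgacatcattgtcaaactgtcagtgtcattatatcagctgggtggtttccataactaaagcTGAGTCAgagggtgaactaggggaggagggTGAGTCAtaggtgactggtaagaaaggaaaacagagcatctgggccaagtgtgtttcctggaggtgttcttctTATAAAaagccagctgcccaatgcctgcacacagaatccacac
The AP-1 motif stood in 7.37% of the 17724 genes with such a window, in 7.08% of 579 rising and in 4.74% of 527 falling genes. TATAAA stood in 12.9%, 10.9% and 6.07%. Genes that rose held neither motif more often than all genes did, and a match describes letters and not a site.

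Matrix and macrophage genes made up most of the other leading rises. Lox, lysyl oxidase, which starts the cross-linking of collagen and elastin, had values of 5.56, 5.85 and 6.01 after sham surgery and 11.22, 11.11 and 10.31 at 5 days and rose by 5.07 (standard error 0.38, adjusted p = 3.64e-05). Tnc, tenascin C of provisional matrix, went from 4.80, 4.37 and 4.73 in sham to 10.11, 9.96 and 8.52 in 5-day hearts and rose by 4.90 (standard error 0.74, adjusted p = 0.00401). For both genes the female replicate 3 was the lowest 5-day array and still lay far above every sham array. Thbs1, thrombospondin 1, an activator of latent TGF-beta, rose by 4.47 (standard error 0.57, adjusted p = 0.00135) and Thbs4, its relative of stressed heart and tendon, by 4.10 (standard error 0.29, adjusted p = 2.62e-05). Thbs4 had values of 6.15, 6.36 and 7.30 after sham surgery and 10.89, 10.28 and 10.93 at 5 days, an adjusted p of 4.72e-05 with sex as a covariate and a call in the female arrays alone, where the female array lay highest. Ltbp2, which binds microfibrils, reached 9.66, 9.53 and 9.69 at 5 days from 5.06, 5.11 and 5.42 in sham hearts and rose by 4.43 (standard error 0.49, adjusted p = 0.000546).

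Spp1, osteopontin, made by macrophages and fibroblasts of healing tissue, was uneven across arrays. It had 5.09, 4.53 and 5.00 in the sham arrays and 10.40, 8.76 and 8.95 at 5 days, without overlap, and rose by 4.50 (standard error 1.11, adjusted p = 0.0329), with a highest adjusted p of 0.153 when an array was left out. Gpnmb, a glycoprotein of lipid-laden and phagocytic macrophages, had 5.59, 5.19 and 5.45 in sham and 10.42, 8.83 and 10.33 in 5-day hearts and rose by 4.45 (standard error 1.02, adjusted p = 0.0245), and here the male replicate 2 was the lowest 5-day array. Ms4a7, a membrane protein of macrophages, was even within both groups at 5.29, 5.32 and 5.35 in sham and 9.86, 9.55 and 9.32 in 5-day hearts and rose by 4.25 (standard error 0.50, adjusted p = 0.000885). Serpinb1a, an intracellular inhibitor of neutrophil serine proteases, had 5.26, 5.16 and 5.85 after sham surgery and 10.37, 11.21 and 8.10 at 5 days, with the female array more than 2 units below both male arrays, and rose by 4.47 (standard error 0.75, adjusted p = 0.0065). The last of the 12, AF357355, is annotated as a small nucleolar RNA on chromosome 12 and rose by 3.99 (standard error 0.61, adjusted p = 0.00425).

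Genes of unlike roles made up the 12 largest falls. Ces1d, a carboxylesterase that hydrolyses triglycerides, had values of 8.83, 8.55 and 8.23 after sham surgery and 4.61, 5.76 and 5.65 at 5 days and fell by 3.20 (standard error 0.87, adjusted p = 0.0449). Pla2g5, a secreted phospholipase A2, had 8.63, 8.83 and 8.42 in sham and 5.39, 5.69 and 6.01 in 5-day hearts, and its fall of 2.93 (standard error 0.44, adjusted p = 0.00401) was one of the 3 among the named falls that kept the call whichever array was left out (highest adjusted p 0.0291). The others were A1cf and Esrrb, both described below. Cyfip2, a subunit of the actin-regulating WAVE complex, fell by 2.94 (standard error 0.80, adjusted p = 0.0443), and Atp6v1g1, a subunit of the proton pump of lysosomes, by 2.79 (standard error 0.59, adjusted p = 0.0189). The methyltransferase gene Inmt ranged over almost 3 units among the sham arrays, 8.05, 6.50 and 9.42, with all lying above 5.33, 5.04 and 5.66 at 5 days, and fell by 2.65 (standard error 0.66, adjusted p = 0.034). Pxmp2, a channel of the peroxisomal membrane, fell by 2.48 (standard error 0.58, adjusted p = 0.027), with the female 5-day array at 8.13 against 6.12 and 6.34 in the male arrays. Scgb1c1, a secretoglobin, Wnk2, a kinase, Efnb3, an ephrin ligand, and Smco1 fell by 2.89, 2.33, 2.06 and 2.01 (adjusted p = 0.00852, 0.0117, 0.0212 and 0.0396). These falls lost their call in at least 1 fit with an array left out, with highest adjusted p of 0.0526, 0.0695, 0.11 and 0.187.

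**Figure D2:**
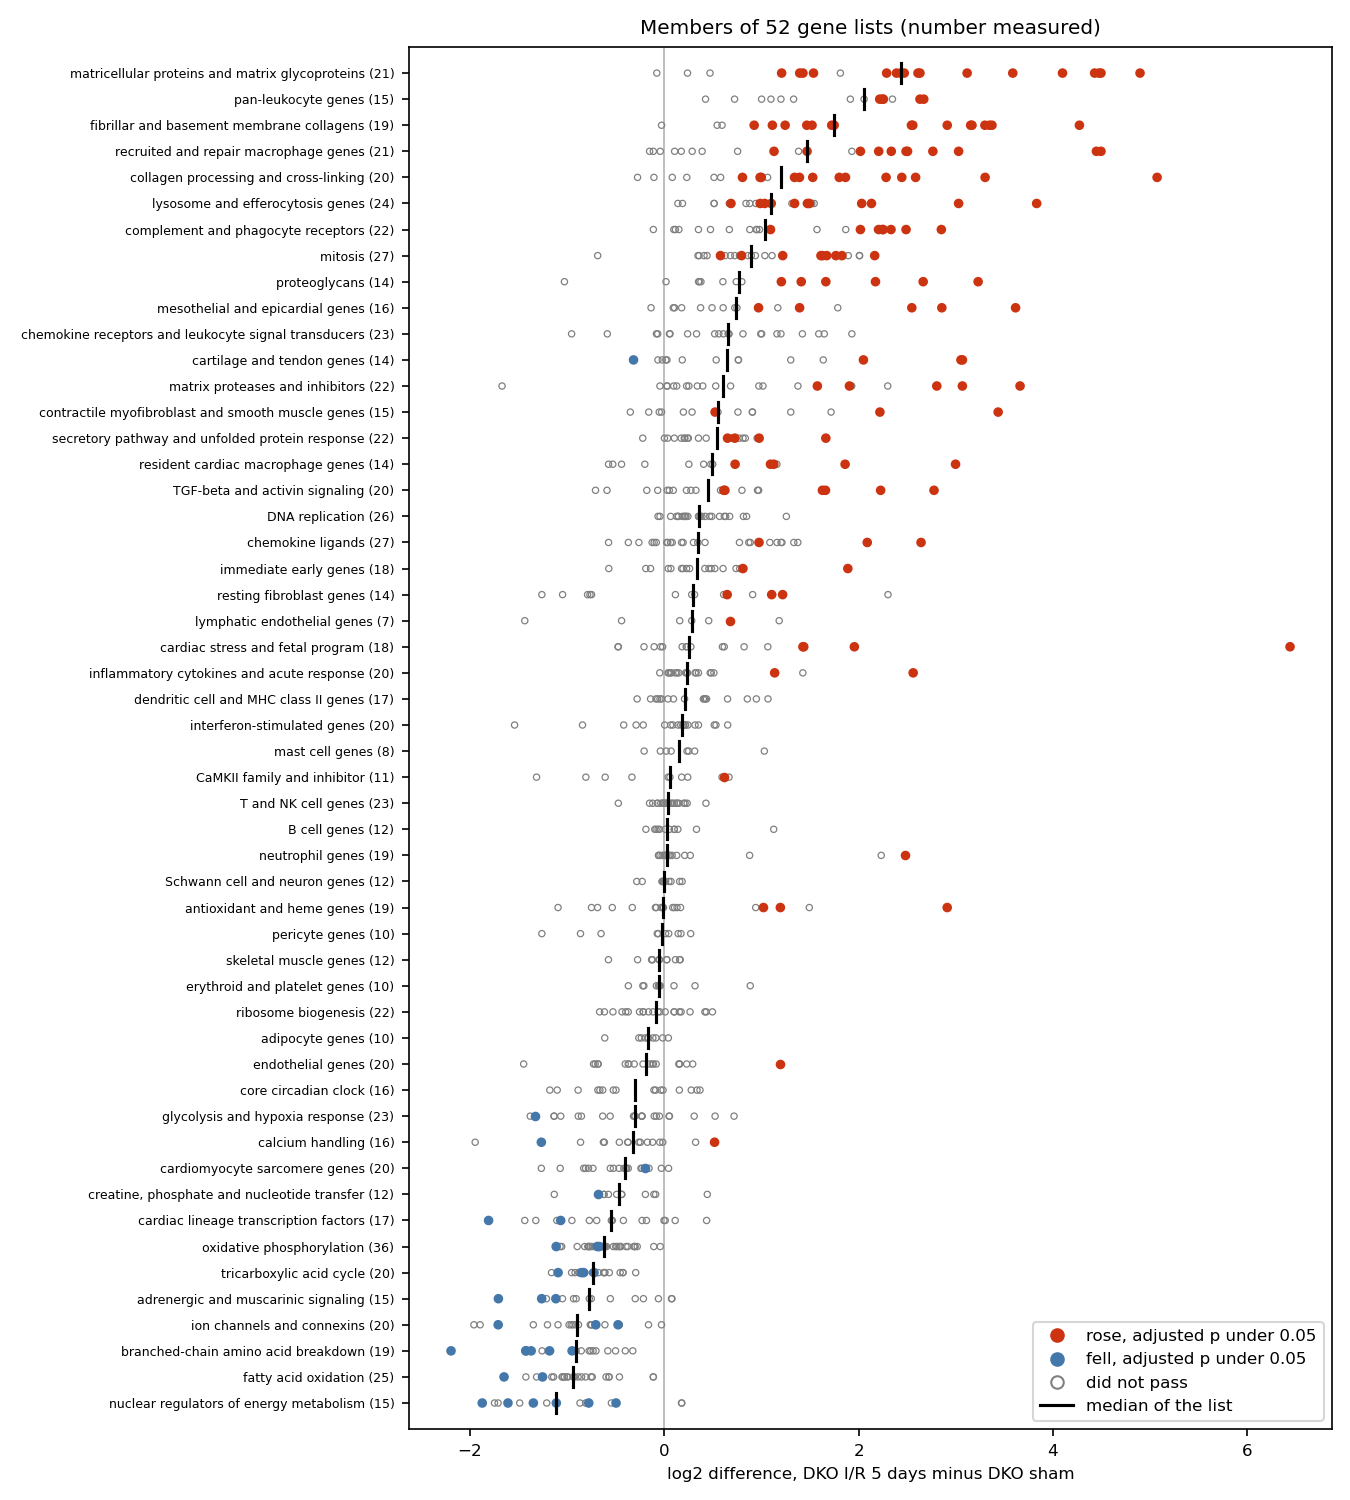
Log2 difference between DKO I/R 5 days and DKO sham (horizontal axis) of each measured member of 52 gene lists, 1 list per row in order of its median (black tick), with red for members that rose, blue for members that fell and open grey for members that did not pass the test. Matrix, leukocyte and macrophage lists lie at the top with medians up to 2.43, and mitochondrial and ion channel lists at the bottom with medians down to -1.11.

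Collagens rose almost as a whole. Of 19 fibrillar, basement membrane and associated collagens, 16 rose and 0 fell (median 1.75, against -0.02 over all features), and 18 had groups that did not overlap. The mean of the list was 7.25, 7.48 and 7.53 in the sham arrays and 9.80, 9.62 and 9.09 at 5 days, and the female array was the lowest of the 5-day group. Col1a1, the main chain of scar collagen, had 8.99, 9.34 and 9.23 after sham surgery and 12.82, 12.74 and 11.90 at 5 days and rose by 3.30 (standard error 0.42, adjusted p = 0.00128). Col12a1, which decorates collagen I fibrils, stood near the floor of the table in sham hearts at 4.64, 4.49 and 4.64, reached 9.43, 9.12 and 8.04 and rose by 4.27 (standard error 0.40, adjusted p = 0.000161). Col5a2, which sets the diameter of fibrils, rose by 3.37 (standard error 0.36, adjusted p = 0.000398), and Col8a1, a short-chain collagen of vessels and injured tissue, by 3.35 (standard error 0.37, adjusted p = 0.000539). All 4 kept their calls whichever array was left out. The count of collagens that rose was 11 with sex as a covariate and ran from 10, without 5-day replicate 1, to 16.

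The machinery that matures collagen rose with it. Of 20 genes for collagen processing and cross-linking, 13 rose and 0 fell (median 1.20). Beside Lox, these included Loxl2, with 6.57, 6.46 and 6.76 in the sham arrays and 9.24, 9.16 and 9.16 at 5 days, which rose by 2.59 (standard error 0.29, adjusted p = 0.000583), and Loxl1, which rose by 1.87 (standard error 0.27, adjusted p = 0.00293). Adamts2, the protease that trims the amino-terminal propeptide of procollagen, rose by 2.28 (standard error 0.32, adjusted p = 0.00266). The 5-day arrays of Loxl2 were nearly equal in male and female hearts. There were 7 of 20 rising with sex as a covariate, and 7 without 5-day replicate 1, 5-day replicate 2, sham replicate 1 or sham replicate 2.

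Matricellular proteins and matrix glycoproteins had the highest median of all lists, 2.43, with 17 of 21 members rising and 0 falling. Their list mean was 7.47, 7.55 and 7.69 after sham surgery and 10.29, 10.06 and 9.78 at 5 days. Fn1, fibronectin, the scaffold on which new collagen is laid, was already high in sham hearts at 9.30, 9.60 and 9.82, reached 12.84, 12.87 and 12.36 and rose by 3.12 (standard error 0.34, adjusted p = 0.000468). Fstl1, a secreted follistatin-like glycoprotein, rose by 2.43 (standard error 0.26, adjusted p = 0.000468). Postn, periostin, which marks activated fibroblasts and lies outside the rule for named genes, had 9.06, 9.14 and 9.97 after sham surgery and 13.15, 13.10 and 12.68 at 5 days and rose by 3.59 (standard error 0.42, adjusted p = 0.000788). The count was 14 with sex as a covariate, and the lowest count with an array left out was 10, without 5-day replicate 1.

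Proteoglycans and cartilage or tendon genes moved in part. Of 14 proteoglycan genes 6 rose and 0 fell (median 0.77). Fmod, fibromodulin, which binds collagen fibrils, had 5.03, 4.77 and 5.07 after sham surgery and 7.82, 8.05 and 8.69 at 5 days, rose by 3.23 (standard error 0.51, adjusted p = 0.00514), and was highest in the female array. Vcan, versican of provisional matrix, rose by 2.17 (standard error 0.29, adjusted p = 0.00188), Bgn, biglycan, by 1.21 (standard error 0.16, adjusted p = 0.00188) and Aspn, asporin, by 2.66 (standard error 0.52, adjusted p = 0.0141). Of 14 cartilage and tendon genes 3 rose and 1 fell. Sox9, a transcription factor of cartilage that is also expressed by activated cardiac fibroblasts, had 6.55, 6.39 and 6.12 in sham and 8.75, 8.39 and 8.07 in 5-day hearts and rose by 2.05 (standard error 0.24, adjusted p = 0.000904). Cthrc1, a secreted glycoprotein of injury-activated fibroblasts, rose by 3.05 (standard error 0.41, adjusted p = 0.00188), and Cilp, a cartilage matrix protein also made by cardiac fibroblasts, by 3.07 (standard error 0.50, adjusted p = 0.00618). Cilp2 fell by 0.32 (standard error 0.07, adjusted p = 0.0203), a small difference between values all under 5.

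Genes that mark the resting and the contractile state of stromal cells moved less. Of 15 contractile myofibroblast and smooth muscle genes, 3 rose and 0 fell. Cnn1, calponin of smooth muscle, had 4.83, 5.19 and 4.71 after sham surgery and 8.54, 8.73 and 7.77 at 5 days and rose by 3.44 (standard error 0.89, adjusted p = 0.038). Tagln, SM22, rose by 2.22 (standard error 0.52, adjusted p = 0.0259), and the female array at 7.23 was the lowest of 8.89, 8.33 and 7.23. Acta2, smooth muscle actin, the usual marker of myofibroblasts, did not pass, with 11.56, 11.97 and 12.02 in sham and 11.93, 11.99 and 11.49 in 5-day hearts and overlapping groups, a difference of -0.05 (standard error 0.50, adjusted p = 0.973), and Myh11 of mature smooth muscle had a difference of -0.35 (standard error 0.22, adjusted p = 0.396). The 14 genes of resting fibroblasts went both ways, with 9 differences above and 5 below 0 (median 0.30). Of them 6 were higher and 5 lower without overlap, beside 14.8% and 18.2% of all features. None fell and 3 rose: Tcf21, a transcription factor of the fibroblast lineage, by 1.22 (standard error 0.29, adjusted p = 0.0285), Igfbp4 by 1.11 (standard error 0.26, adjusted p = 0.0258) and Lamc1, a laminin chain, by 0.65 (standard error 0.15, adjusted p = 0.0284). Pdgfra, the receptor that marks cardiac fibroblasts, had 9.54, 9.57 and 10.02 in sham and 10.15, 9.86 and 9.96 in 5-day hearts and did not pass, a difference of 0.28 (standard error 0.18, adjusted p = 0.383). With sex as a covariate neither list had a member that rose, and neither had one without 5-day replicate 1 or without sham replicates 1 or 2.

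Of 20 genes of TGF-beta and activin signaling 6 rose and 0 fell. Among ligands Tgfb3 rose by 2.23 (standard error 0.40, adjusted p = 0.0102), and among receptors Tgfbr2 rose by 0.61 (standard error 0.14, adjusted p = 0.0238) and Acvr1 by 0.62 (standard error 0.14, adjusted p = 0.0206). Without 5-day replicate 1 none of the 20 passed, and with sex as a covariate 2 did. Of 22 matrix proteases and inhibitors 5 rose. Timp1, the inhibitor of metalloproteinases that tissue injury induces, had 5.33, 5.77 and 5.33 in sham and 9.45, 9.14 and 8.82 in 5-day hearts and rose by 3.66 (standard error 0.42, adjusted p = 0.000777), and Mmp14, a membrane-bound collagenase, rose by 2.81 (standard error 0.39, adjusted p = 0.0025) although its sham arrays ranged from 6.85 to 8.15. Serpina3n, an acute-phase protease inhibitor, rose by 3.07 (standard error 0.51, adjusted p = 0.00629) and Mmp23 by 1.58 (standard error 0.28, adjusted p = 0.00967).

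Most transcripts of dividing cells were higher in the 5-day arrays. Of 27 mitosis genes 9 rose and 0 fell (median 0.90), and 25 were higher and 1 lower without overlap. The list mean was 4.68, 4.79 and 4.85 after sham surgery and 6.05, 5.76 and 5.66 at 5 days. Ect2, the exchange factor that places the cleavage furrow, had 4.33, 4.96 and 4.78 in sham and 6.96, 6.40 and 6.20 in 5-day hearts and rose by 1.83 (standard error 0.47, adjusted p = 0.0389). Anln, an actin binder of the same furrow, rose by 1.67 (standard error 0.43, adjusted p = 0.0371), Ndc80 of the kinetochore by 1.63 (standard error 0.41, adjusted p = 0.0362) and Nusap1 of the spindle by 1.22 (standard error 0.32, adjusted p = 0.039). Top2a, the topoisomerase that untangles chromosomes, and Cdk1, the kinase that starts mitosis, were chosen after their values were seen and rose by 2.17 (standard error 0.57, adjusted p = 0.0399) and 1.77 (standard error 0.48, adjusted p = 0.0443). These calls were narrow: 2 of the 27 passed without 5-day replicate 3, and 0 when any other array of either group was left out or with sex as a covariate. With array weights 21 rose and 1 fell. None of 26 DNA replication genes passed (median 0.36, 24 positive), with Pcna, the sliding clamp, at 0.63 (standard error 0.30, adjusted p = 0.22) and Tyms, thymidylate synthase, at 1.26 (standard error 0.38, adjusted p = 0.0633).

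The 250 bases before the starts of Ect2 and Top2a are shown because these called mitosis genes hold both elements searched for here, and they do not stand for the list. They are from RefSeq on GRCm38.p6, both on the minus strand, at chr3:27153855-27154104 and chr11:99024190-99024439. Capitals mark the CCAAT box (CCAAT) and the core of the cell cycle homology region (TTTGAA), each searched on both strands, so that ATTGG and TTCAAA are the reverse strand forms.
Ect2: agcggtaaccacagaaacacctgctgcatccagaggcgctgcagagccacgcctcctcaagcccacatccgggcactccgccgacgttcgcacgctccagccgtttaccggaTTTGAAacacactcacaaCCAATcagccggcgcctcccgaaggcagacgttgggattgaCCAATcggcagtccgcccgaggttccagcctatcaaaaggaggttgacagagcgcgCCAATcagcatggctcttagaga
Top2a: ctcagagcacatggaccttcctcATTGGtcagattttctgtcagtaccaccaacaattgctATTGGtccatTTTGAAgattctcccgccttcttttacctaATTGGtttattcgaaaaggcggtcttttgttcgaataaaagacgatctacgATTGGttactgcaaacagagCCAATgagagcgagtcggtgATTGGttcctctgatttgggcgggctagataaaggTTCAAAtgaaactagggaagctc
Ect2 holds 3 CCAAT boxes and 1 TTTGAA, and Top2a holds 6 and 2. A CCAAT box stood in 17 of the 22 mitosis genes with a window (77.3%) against 38.9% of all 17724 genes, and TTTGAA in 9 (40.9%) against 16.1%. Both elements stood in 8 of the 22 (36.4%) against 6.71% of all genes. Of the called mitosis genes, 8 had a window and 3 of these, Ect2, Top2a and Cdk1, held both. CCAAT stood in 4 of these 8 (50%) and TTTGAA in 4 (50%), and Anln, Ndc80 and Nusap1 held neither. Of all genes that rose, 36.6% held CCAAT and 14.3% TTTGAA. A match is a description of the letters and not a site.

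Leukocyte transcripts were higher on every 5-day array. All 15 pan-leukocyte genes had 5-day arrays above all sham arrays, with a median of 2.06, and 5 passed. Ptprc, which encodes CD45, had 5.21, 5.54 and 5.77 after sham surgery and 8.52, 8.05 and 7.97 at 5 days and rose by 2.67 (standard error 0.73, adjusted p = 0.046). Laptm5, a lysosomal protein of blood cells, rose by 2.22 (standard error 0.44, adjusted p = 0.0148), Fcer1g, the signaling chain of Fc receptors, by 2.26 (standard error 0.45, adjusted p = 0.0151) and Nckap1l of the leukocyte WAVE complex by 2.63 (standard error 0.60, adjusted p = 0.0241). With sex as a covariate 4 of the 15 rose, and none did without 5-day replicate 1, sham replicate 1 or sham replicate 2. With array weights 14 of the 15 rose. The SD of Ptprc was 0.30 in DKO hearts at 5 days and 0.28 in DKO sham hearts. It was 1.27 in DKO hearts at 1 day and 1.68 in FFFF hearts at 5 days, which also enter the pooled spread.

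Of 21 genes of recruited and repair macrophages 11 rose and 0 fell (median 1.47). Their list mean was 6.38, 6.42 and 6.60 after sham surgery and 8.35, 7.91 and 7.94 at 5 days, and replicate 1 was the highest. Cd68, a glycoprotein of phagocyte lysosomes, had 7.68, 7.83 and 7.93 in sham and 11.24, 10.50 and 10.79 in 5-day hearts and rose by 3.03 (standard error 0.46, adjusted p = 0.00425). Igf1, a growth factor that repair macrophages and fibroblasts make, had 6.81, 6.97 and 7.33 in sham and 9.91, 9.29 and 9.41 in 5-day hearts and rose by 2.50 (standard error 0.34, adjusted p = 0.00188). The count was 10 with sex as a covariate and 6 without 5-day replicate 1, 5-day replicate 2, sham replicate 1 or sham replicate 2.

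Of 14 genes listed for resident cardiac macrophages 5 rose and 0 fell. Adgre1, which encodes the F4/80 antigen of most macrophages, had 5.60, 6.22 and 6.28 in sham and 9.41, 8.91 and 8.77 in 5-day hearts and rose by 3.00 (standard error 0.52, adjusted p = 0.00785), and Csf1r, the receptor for CSF-1, rose by 1.86 (standard error 0.32, adjusted p = 0.00749). F13a1 rose by 1.13 (standard error 0.26, adjusted p = 0.0259) and Vsig4, a complement receptor of resident macrophages, by 0.73 (standard error 0.16, adjusted p = 0.0206) to values that stayed at or under 4.98. The median of the list was 0.49, and 4 of the 14 differences were below 0. The count was 2 with sex as a covariate and 0 without 5-day replicate 1.

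Genes by which phagocytes tag and digest debris rose in part. Of 22 complement and phagocyte receptor genes 8 rose and 0 fell (median 1.04). The 3 chains of C1q, which opsonizes dying cells, rose by similar amounts: C1qa by 2.02 (standard error 0.26, adjusted p = 0.00156), C1qb by 2.21 (standard error 0.34, adjusted p = 0.00425) and C1qc by 2.49 (standard error 0.35, adjusted p = 0.00271). C4b, the next component of the classical pathway, had 5.01, 4.99 and 5.40 after sham surgery and 7.59, 6.96 and 7.62 at 5 days, rose by 2.25 (standard error 0.24, adjusted p = 0.000398), and kept its call in the female arrays alone. All 4 genes kept their calls whichever array was left out. Of 24 lysosome and efferocytosis genes 11 rose, 23 had groups that did not overlap, and the median was 1.10. Ctss, cathepsin S of antigen-presenting cells, had 6.52, 6.84 and 7.46 in sham and 11.21, 10.28 and 10.83 in 5-day hearts and rose by 3.83 (standard error 0.70, adjusted p = 0.0109). Ctsb, cathepsin B, was high in every array at 11.94, 11.87 and 11.88 in sham and 13.13, 12.79 and 12.74 in 5-day hearts and rose by 0.99 (standard error 0.19, adjusted p = 0.0142), and Lgmn, legumain, by 1.47 (standard error 0.29, adjusted p = 0.0145). The lysosome count was 9 with sex as a covariate, 13 without 5-day replicate 3, 7 without sham replicate 3, 3 without 5-day replicate 2 and 1 without 5-day replicate 1, sham replicate 1 or sham replicate 2.

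Few genes of neutrophils and lymphocytes passed. Over all features 3.23% rose and 14.8% were higher without overlap, so that lists of this size would hold few calls in any case. The neutrophil granule genes S100a8, S100a9 and Ly6g had values between 3.77 and 4.17 on all 6 arrays, close to the table's lowest value of 3.49. Of 19 neutrophil genes 5 were higher and 0 lower without overlap and 1 rose (median 0.03), Lcn2, a lipocalin of neutrophil granules that stressed cardiomyocytes and macrophages also express, with 6.72, 6.82 and 7.11 in sham and 9.41, 10.61 and 8.06 in 5-day hearts and a rise of 2.47 (standard error 0.64, adjusted p = 0.0378). That call was lost with sex as a covariate. Clec4d, a lectin receptor of myeloid cells, had 4.25, 4.23 and 4.17 in sham and 7.65, 6.26 and 5.45 in 5-day hearts, a difference of 2.23 (standard error 0.72, adjusted p = 0.0771), and Csf3r, the receptor of granulocyte colony-stimulating factor, had 5.06, 5.15 and 5.10 in sham and 6.29, 6.01 and 5.65 in 5-day hearts, a difference of 0.88 (standard error 0.62, adjusted p = 0.453). None of 23 T and NK cell genes passed (median 0.04, 2 higher and 2 lower without overlap), nor did any of 12 B cell genes (median 0.03, 3 higher and 0 lower without overlap). Ighm, the heavy chain of IgM, had 7.18, 7.28 and 6.97 in sham and 8.17, 8.44 and 8.19 in 5-day hearts, higher on every array, with a difference of 1.13 (standard error 0.41, adjusted p = 0.115). Cd3e had 4.47, 4.50 and 4.70 after sham surgery and 4.72, 4.67 and 4.68 at 5 days, and Ms4a1 of B cells had values of at most 3.92. Of 17 dendritic cell and MHC class II genes 0 passed (median 0.21), with H2-Aa, an MHC class II chain, at 9.53, 9.46 and 9.52 in sham and 10.67, 10.02 and 10.38 in 5-day hearts and a difference of 0.85 (standard error 0.54, adjusted p = 0.387). The 8 mast cell genes also gave 0 calls, with Cpa3, mast cell carboxypeptidase, at 1.03 (standard error 0.48, adjusted p = 0.215). Lists of 12 Schwann cell and neuron genes, 10 adipocyte genes, 10 erythroid and platelet genes and 12 skeletal muscle genes likewise gave 0 calls, with medians of 0.00, -0.17, -0.06 and -0.05.

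Of 27 chemokine ligands 15 were higher and 1 lower without overlap (median 0.35), and 3 rose and 0 fell, beside 14.8% and 3.23% of all features that were higher without overlap and that rose. The 3 were Ccl8, a ligand of monocyte receptors, from 4.41, 4.34 and 4.45 in sham to 8.29, 6.02 and 6.81 in 5-day hearts by 2.64 (standard error 0.51, adjusted p = 0.0132), Cxcl16, which is also a scavenger receptor, by 2.09 (standard error 0.38, adjusted p = 0.01) and Cx3cl1, fractalkine, by 0.97 (standard error 0.18, adjusted p = 0.0102). Cx3cl1 was highest in the female array. The study followed 11 genes of chemokine signaling, a list it chose on these same arrays, so that their direction is no independent evidence. Of these 0 passed, and 8 were higher without overlap (median 0.66). Ccl2, the main chemoattractant of monocytes, had 4.85, 4.90 and 4.94 after sham surgery and 6.72, 6.00 and 5.60 at 5 days, higher on every array, with a difference of 1.21 (standard error 0.81, adjusted p = 0.424). Ccl3, an attractant of macrophages, had 4.57, 4.65 and 4.47 in sham and 6.34, 5.34 and 6.13 in 5-day hearts, also without overlap, a difference of 1.37 (standard error 0.76, adjusted p = 0.314), and Ccl6 had 1.16 (standard error 0.66, adjusted p = 0.33). The neutrophil receptor Cxcr2 and the ligands Cxcl3 and Ppbp overlapped between the groups, with differences of 0.06, 0.02 and -0.37. Of 23 chemokine receptors and leukocyte signal transducers 0 passed, although 16 were higher without overlap (median 0.66), and the nearest to the threshold was Ncf1 of the phagocyte oxidase at 1.65 (standard error 0.46, adjusted p = 0.0513).

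Of 20 inflammatory cytokine and acute response genes 2 rose, Saa3, an acute-phase serum amyloid, from 4.41, 4.30 and 4.77 in sham to 5.50, 8.24 and 7.43 in 5-day hearts by 2.56 (standard error 0.69, adjusted p = 0.0439) and Vcam1, an adhesion molecule for leukocytes, by 1.14 (standard error 0.26, adjusted p = 0.0238). Neither passed with sex as a covariate. None of 20 interferon-stimulated genes passed (median 0.18), while with sex as a covariate 2 rose and the median was 0.63, and without 5-day replicate 3 it was -0.0070. Bst2 had 7.59, 8.10 and 7.11 after sham surgery and 5.84, 5.75 and 6.58 at 5 days and a difference of -1.54 (standard error 0.75, adjusted p = 0.24), and Rsad2 had -0.84 (standard error 0.36, adjusted p = 0.181). Ifit2, which limits viral translation, and Ddx58, which encodes the RNA sensor RIG-I, were higher on every 5-day array, at 0.35 and 0.53 (adjusted p = 0.362 and 0.393).

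**Figure D3:**
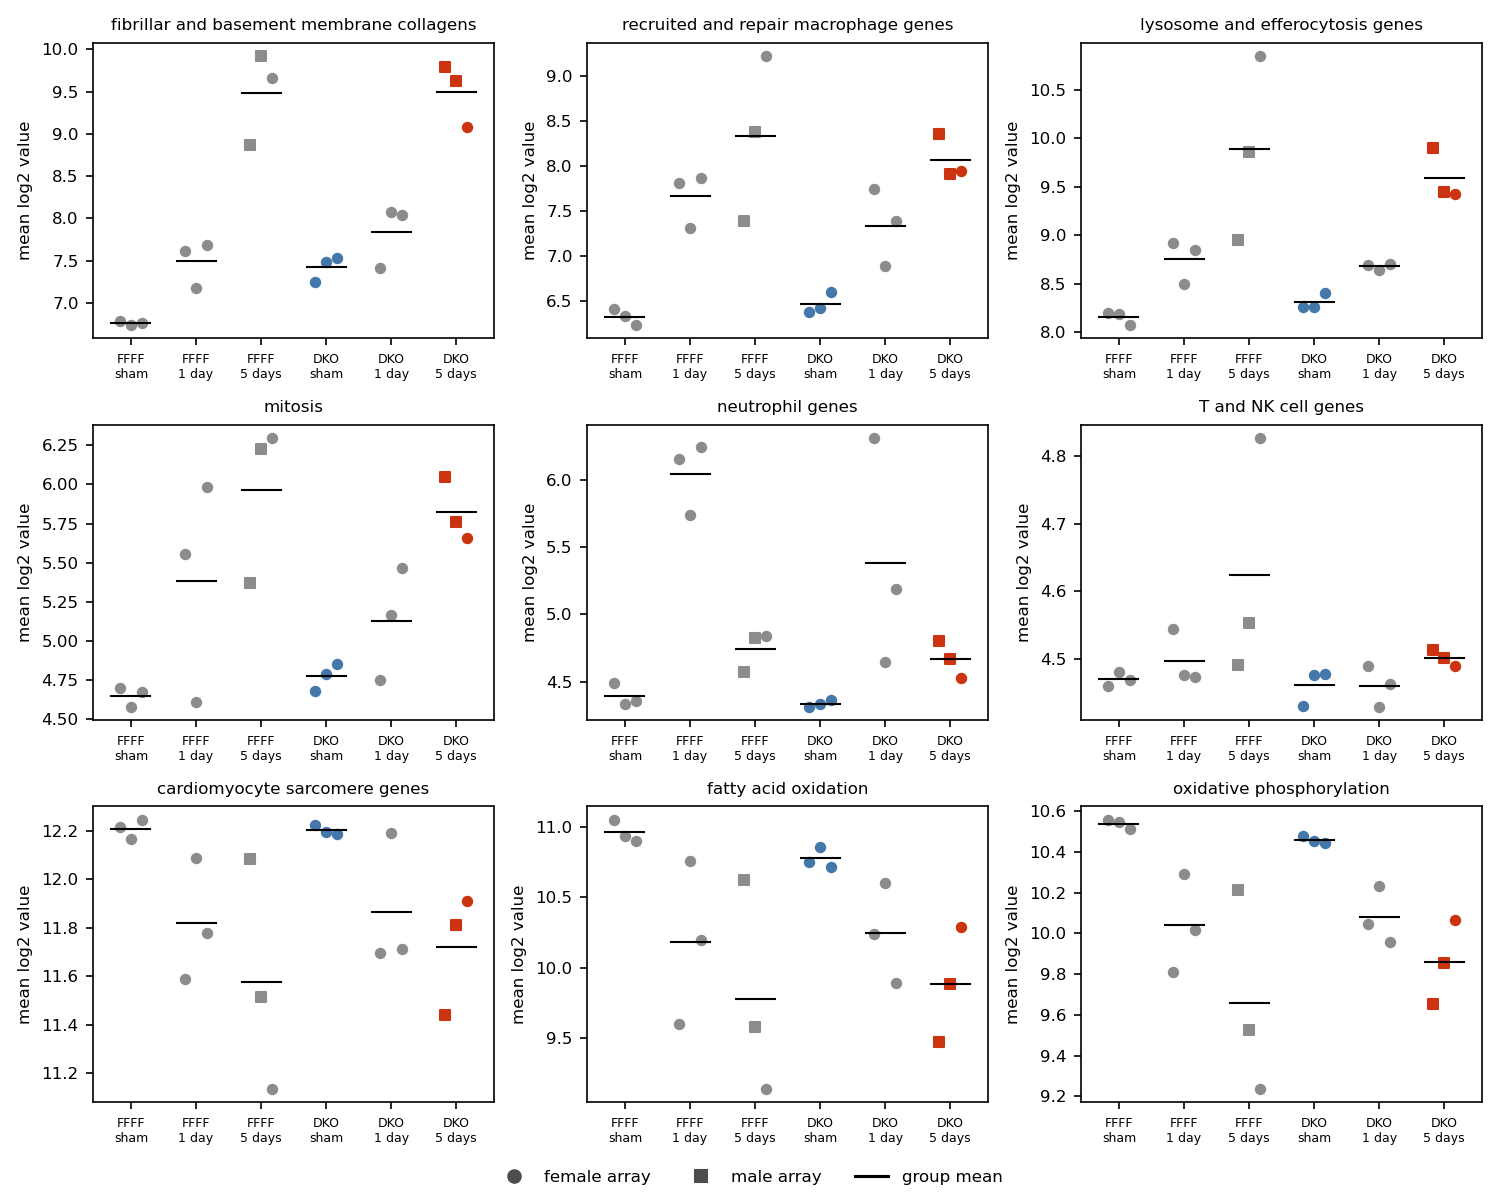
Mean log2 value of the members of 9 gene lists on each array (vertical axis, a different range in each panel), by genotype and day, with squares for male hearts, blue for DKO sham, red for DKO I/R 5 days, grey for the other groups and a black line for each group mean. The collagen list rises from sham means of 7.25 to 7.53 to 5-day means of 9.09 to 9.80 in DKO hearts, while the T and NK cell list of the same 6 arrays stays between 4.43 and 4.51.

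Cardiomyocyte genes were lower at 5 days, and few passed in the fit used throughout (8 sarcomere genes fell with array weights). Of 20 sarcomere genes 19 had differences below 0 (median -0.41), 17 were lower without overlap and 1 fell, beside 18.2% and 2.84% of all features. It was Actc1, cardiac actin, by 0.20 (standard error 0.05, adjusted p = 0.0438) from the highest value of the table. Normalization gives every array the same top value, which Actc1 held on all 3 sham arrays and Nppa on all 3 5-day arrays. The difference of Actc1 is thus a step of rank at the ceiling of the scale. Tnni3, cardiac troponin I, had 13.39, 13.39 and 13.39 after sham surgery and 12.59, 12.77 and 13.15 at 5 days, a difference of -0.56 (standard error 0.18, adjusted p = 0.0799), and Myl2, the ventricular light chain, had -0.47 (standard error 0.14, adjusted p = 0.0673). The list mean of the 5-day arrays was 11.44, 11.81 and 11.91, below 12.22, 12.20 and 12.19 in sham hearts, with the female array nearest to sham. Of 18 genes of the stress and fetal program 4 rose and 0 fell. Beside Sprr1a these were Xirp2, an actin binder of intercalated discs, by 1.44 (standard error 0.35, adjusted p = 0.0305), Mybpc2, the fast skeletal form of myosin-binding protein C, by 1.96 (standard error 0.41, adjusted p = 0.0174) and Ccn2, connective tissue growth factor, by 1.43 (standard error 0.36, adjusted p = 0.0364). The count was 1 of 18 with sex as a covariate and 1 without 5-day replicates 1 or 2 or sham replicate 2. Xirp2 lost its call whichever array was left out. Nppb, the B-type natriuretic peptide, had 11.24, 11.55 and 11.61 in sham and 12.22, 11.85 and 12.18 in 5-day hearts, a difference of 0.62 (standard error 0.29, adjusted p = 0.214), Acta1, skeletal actin, overlapped between the groups, a difference of 0.60 (standard error 0.25, adjusted p = 0.173), and Ankrd1 had 0.23 (standard error 0.09, adjusted p = 0.13).

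The myosin heavy chain locus on chromosome 14 holds 2 microRNA genes inside introns of the myosin genes, Mir208a in Myh6 and Mir208b in Myh7. Mir208a had 6.37, 6.92 and 6.48 after sham surgery and 4.48, 5.14 and 5.41 at 5 days and fell by 1.58 (standard error 0.31, adjusted p = 0.0136). Its host Myh6, the adult mouse heavy chain, had 13.33, 13.29 and 13.33 in sham and 12.63, 13.06 and 13.06 in 5-day hearts, a difference of -0.40 (standard error 0.20, adjusted p = 0.254). Mir208b, with 3.91, 3.98 and 3.94 in sham and 3.67, 3.74 and 3.81 in 5-day hearts, had a difference of -0.21 (standard error 0.08, adjusted p = 0.116), and its host Myh7, the fetal heavy chain, varied from 8.69 to 10.99 over the 5-day arrays and overlapped sham, a difference of -0.48 (standard error 0.86, adjusted p = 0.816). The mature sequences of the pair, from RefSeq on GRCm38.p6 (minus strand, chr14:54949072-54949093 and chr14:54975710-54975731), are shown because they share their seed, bases 2 to 8 in capitals, and differ at 3 positions outside it.
miR-208a-3p: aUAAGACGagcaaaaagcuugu
miR-208b-3p: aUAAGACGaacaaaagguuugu
The array probes the precursor or host transcript, so that the fall of Mir208a is no measure of the mature strand. Its call was lost without some arrays, with adjusted p from 0.0126 to 0.0808 over the fits with 1 array left out and 0.0622 with sex as a covariate.

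Genes of excitation and its control fell in part. All 20 ion channel and connexin genes had differences below 0 (median -0.90), 16 without overlap, and 3 fell. Kcnj11, the pore of the cardiac ATP-sensitive potassium channel, had 7.92, 8.29 and 8.10 after sham surgery and 6.18, 6.40 and 6.60 at 5 days and fell by 1.71 (standard error 0.36, adjusted p = 0.0191). Kcnd3, a channel of the transient outward current, fell by 0.71 (standard error 0.19, adjusted p = 0.0404) and Hcn4, the pacemaker channel, by 0.48 (standard error 0.11, adjusted p = 0.0238) between values of at most 4.65. Of 15 adrenergic and muscarinic genes 3 fell. The alpha-1 receptors Adra1a and Adra1b had 5.34, 5.58 and 5.82 and, respectively, 4.71, 5.48 and 5.49 at 5 days, below every sham array of the same gene. They fell by 1.71 (standard error 0.39, adjusted p = 0.0248) and 1.26 (standard error 0.33, adjusted p = 0.0399), and Pde4d, which breaks down cAMP, fell by 1.12 (standard error 0.30, adjusted p = 0.0434). Of 16 calcium handling genes 14 had differences below 0 (median -0.32), with 9 lower and 2 higher without overlap. Of these 16, 1 fell and 1 rose, beside 2.84% and 3.23% of all features. Jph2, junctophilin, which holds the dyad together, fell by 1.27 (standard error 0.34, adjusted p = 0.0451) and Fkbp1b, which stabilizes the ryanodine receptor, rose by 0.52 (standard error 0.13, adjusted p = 0.0358) at values of at most 4.62. Atp2a2, SERCA2, had 13.54, 13.58 and 13.47 in sham and 12.79, 13.13 and 13.29 in 5-day hearts, a difference of -0.46 (standard error 0.20, adjusted p = 0.182). With sex as a covariate 2 ion channel, 1 adrenergic and 0 calcium handling genes passed, and without 5-day replicate 1 none of the 3 lists had a call. With array weights 12, 8 and 3 genes of these lists fell and 1 calcium handling gene rose.

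Genes of mitochondrial fuel use were lower on nearly every 5-day array. All 36 oxidative phosphorylation genes had differences below 0 (median -0.63), 32 of them without overlap, but 3 passed: Uqcrfs1, the iron-sulfur subunit of complex III, with 9.11, 9.21 and 9.04 in sham and 7.76, 7.95 and 8.30 in 5-day hearts, fell by 1.11 (standard error 0.26, adjusted p = 0.0266), Uqcrq of the same complex by 0.69 (standard error 0.18, adjusted p = 0.043) and Atp5c1 of the ATP synthase by 0.67 (standard error 0.15, adjusted p = 0.0233). The list mean was 10.48, 10.46 and 10.45 after sham surgery and 9.65, 9.86 and 10.07 at 5 days. All 25 fatty acid oxidation genes (median -0.94) and all 20 tricarboxylic acid cycle genes (median -0.73) were likewise below 0. Eci1, which prepares unsaturated fatty acids for oxidation, had 10.37, 10.43 and 10.19 in sham and 8.15, 8.61 and 9.27 in 5-day hearts and fell by 1.65 (standard error 0.45, adjusted p = 0.0465), and Acads, which oxidizes short chains, fell by 1.25 (standard error 0.34, adjusted p = 0.0454). In the tricarboxylic acid cycle 4 fell, Idh3b by 0.72 (standard error 0.18, adjusted p = 0.0307), Suclg2 by 1.09 (standard error 0.29, adjusted p = 0.0424), Sucla2 by 0.85 (standard error 0.23, adjusted p = 0.0443) and Cs, citrate synthase, by 0.83 (standard error 0.23, adjusted p = 0.0464). In each of the 3 lists replicate 1 lay lowest and the female replicate 3 nearest to sham, and none of these 9 calls remained with sex as a covariate or when any array other than 5-day replicate 3 was left out. Without that array 7 of the 9 remained, all but Uqcrq and Acads, and 6, 4 and 8 genes of the lists passed. In the female arrays alone the medians of the 3 lists were -0.38, -0.52 and -0.42. With array weights 28 of 36, 17 of 25 and 18 of 20 genes of the lists fell.

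Breakdown of branched-chain amino acids and the nuclear factors of energy metabolism held the most falling genes. Of 19 breakdown genes 6 fell (median -0.91). Mccc1, of the carboxylase that degrades leucine, had 8.92, 8.94 and 9.32 after sham surgery and 6.27, 7.00 and 7.31 at 5 days and fell by 2.20 (standard error 0.41, adjusted p = 0.0119), its partner Mccc2 by 1.37 (standard error 0.35, adjusted p = 0.0362), and Bckdha and Dbt of the dehydrogenase complex by 1.42 (standard error 0.36, adjusted p = 0.0349) and 0.95 (standard error 0.22, adjusted p = 0.0273). Of 15 nuclear regulators 6 fell, with the lowest median of all lists, -1.11. Ppara, the fatty acid receptor that drives oxidation genes, had 8.20, 7.86 and 8.20 in sham and 5.45, 6.28 and 6.91 in 5-day hearts and fell by 1.87 (standard error 0.44, adjusted p = 0.0272). Esrrb, an estrogen-related receptor, had 6.80, 6.60 and 6.47 in sham and 4.63, 5.32 and 5.09 in 5-day hearts and fell by 1.61 (standard error 0.25, adjusted p = 0.00425), and it alone of the 6 kept its call whichever array was left out (highest adjusted p 0.0303) and with sex as a covariate (adjusted p = 0.0166). Mlxipl, which responds to glucose, fell by 1.35 (standard error 0.34, adjusted p = 0.0343) and Ppargc1b, a coactivator of mitochondrial genes, by 1.11 (standard error 0.29, adjusted p = 0.0395). With sex as a covariate 0 of 19 breakdown genes passed, and 0 without 5-day replicate 1. With array weights 16 of the 19 and 12 of the 15 nuclear regulators fell.

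Other lists of cardiomyocyte function gave 0 to 2 calls each, beside 2.84% of all features that fell. Slc25a3, the mitochondrial phosphate carrier, fell by 0.68 (standard error 0.18, adjusted p = 0.0403), the only one of 12 genes for creatine, phosphate and nucleotide transfer. Pgam1 fell by 1.33 (standard error 0.29, adjusted p = 0.0196) among 23 genes of glycolysis and the hypoxia response, whose median was -0.30. Of 17 cardiac lineage transcription factors Irx3, which shapes conduction, had 8.06, 8.28 and 7.95 after sham surgery and 6.01, 5.86 and 6.99 at 5 days and fell by 1.81 (standard error 0.42, adjusted p = 0.0259), and Irx5 fell by 1.07 (standard error 0.22, adjusted p = 0.0181). None of 16 circadian clock genes passed (median -0.30). Nr1d1, REV-ERBα, ranged from 9.36 to 11.00 at 5 days against 11.22, 11.06 and 11.38 in sham hearts, a difference of -1.10 (standard error 0.33, adjusted p = 0.0633), and the female array lay nearest to sham.

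Few vascular genes passed, as lists of this size would give with 3.23% of all features rising and 2.84% falling. Of 20 endothelial genes 1 rose and 0 fell (median -0.19), Plvap, a protein of fenestrated and leaky endothelium, from 5.50, 5.62 and 5.58 in sham to 6.98, 6.87 and 6.43 in 5-day hearts by 1.19 (standard error 0.33, adjusted p = 0.0463). Pecam1 and Cdh5, which mark all endothelium, had differences of 0.15 (standard error 0.16, adjusted p = 0.645) and -0.15 (standard error 0.16, adjusted p = 0.65), and the water channel Aqp1 had -1.45 (standard error 0.42, adjusted p = 0.0576). None of 10 pericyte genes passed (median -0.02), and 5 differences were above and 5 below 0. The potassium channel genes Kcnj8 and Abcc9 had -0.86 (standard error 0.26, adjusted p = 0.0599) and -1.26 (standard error 0.43, adjusted p = 0.0932), each lower without overlap. The pericyte markers Rgs5 and Pdgfrb had differences of 0.05 and 0.17. Of 7 lymphatic genes Fgl2, which macrophages also express, rose by 0.68 (standard error 0.18, adjusted p = 0.0401). Neither Plvap nor Fgl2 passed with sex as a covariate, and Fgl2 lost its call whichever array was left out. Prox1, the defining lymphatic transcription factor that cardiomyocytes also express, had -1.44 (standard error 0.45, adjusted p = 0.0706).

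Of 16 mesothelial and epicardial genes 5 rose and 0 fell. From 4 to 5 passed whichever array was left out, 5 with sex as a covariate, and 3, Frem1, Msln and Upk1b, in the female arrays alone. Frem1 (chromosome 4), an extracellular matrix protein of epithelial basement membranes, had 4.17, 4.31 and 4.42 in sham hearts, near the floor, and 7.34, 7.03 and 6.18 at 5 days and rose by 2.55 (standard error 0.21, adjusted p = 5.47e-05). Aldh1a2, which makes retinoic acid in epicardium, had 5.55, 5.48 and 5.00 in sham and 8.61, 8.27 and 7.72 in 5-day hearts and rose by 2.86 (standard error 0.29, adjusted p = 0.000277). Krt18, a keratin, rose by 1.39 (standard error 0.20, adjusted p = 0.00298) and Clu, clusterin, which many injured cells make, by 0.97 (standard error 0.15, adjusted p = 0.00425). The fifth, Sfrp2, a Wnt modulator that fibroblasts also secrete, rose by 3.62 (standard error 0.65, adjusted p = 0.00967). Markers that define the lineage differed among arrays: Wt1 overlapped between the groups, a difference of -0.14 (standard error 0.25, adjusted p = 0.824), and Msln and Upk3b had 4.37, 4.31 and 5.39 and 4.95, 5.50 and 6.08 at 5 days, highest in the female array, with differences of 0.49 (standard error 0.21, adjusted p = 0.184) and 0.75 (standard error 0.25, adjusted p = 0.0838).

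Of 22 genes of the secretory pathway and unfolded protein response 4 rose and 0 fell: Kdelr3, which returns chaperones to the endoplasmic reticulum, by 1.66 (standard error 0.41, adjusted p = 0.0326), Sec23a of the vesicles that export procollagen by 0.65 (standard error 0.15, adjusted p = 0.0266), Crtap, a collagen hydroxylation partner, by 0.73 (standard error 0.18, adjusted p = 0.033) and Creb3l1, a transcription factor of collagen-secreting cells, by 0.98 (standard error 0.26, adjusted p = 0.0413). None of the 22 passed with sex as a covariate or when any array of the groups other than 5-day replicate 3 was left out. None of 22 ribosome biogenesis genes passed (median -0.09). Of 19 antioxidant and heme genes 3 rose, Hmox1, heme oxygenase 1, from 6.21, 6.24 and 6.78 in sham to 10.39, 9.19 and 8.38 in 5-day hearts by 2.91 (standard error 0.58, adjusted p = 0.0145), Gpx1 by 1.19 (standard error 0.27, adjusted p = 0.0238) and Mt2, a metallothionein, by 1.02 (standard error 0.24, adjusted p = 0.0273). Among 18 immediate early genes Egr2 rose by 1.89 (standard error 0.41, adjusted p = 0.0197) and Egr3 by 0.81 (standard error 0.22, adjusted p = 0.0431). Only Gpx1 of the antioxidant genes and 0 of the immediate early genes passed with sex as a covariate, and without 5-day replicate 1 none of either list did. Camk1, which encodes CaM kinase I and no CaMKII isoform, rose by 0.61 (standard error 0.12, adjusted p = 0.0131), a call lost with sex as a covariate (adjusted p = 0.0649) and in 4 of the 6 fits with an array left out. Camk2a and Camk2b, the CaMKII isoforms known best from brain, had 7.36, 7.29 and 7.03 and 5.56, 5.74 and 5.57 in sham hearts, lower values on every 5-day array and differences of -1.32 (standard error 0.44, adjusted p = 0.0906) and -0.81 (standard error 0.28, adjusted p = 0.0995).

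The same surgery in FFFF mice addresses whether these changes are particular to hearts without CaMKII in their cardiomyocytes. In FFFF hearts 4475 genes were called at 5 days (18.3%), 2022 higher (8.26%) and 2453 lower. Of the 1487 genes called in DKO, 1229 were called the same way in FFFF, which is 82.7% of the DKO and 27.5% of the FFFF calls, and 0 the opposite way. Of the other 258, 242 had the same sign in FFFF. Across all features the 2 sets of differences, which share no array, correlated at 0.904, a description over genes that are not independent replicates. The test of the difference between the responses gave 0 calls of 24479 (0%), with 979 at an unadjusted p under 0.05 and 0 by gene-wise analysis of variance, and no member of any gene list was called. A p that misses the threshold does not show equal responses: for Col1a1 the DKO response minus the FFFF response was -1.30 (standard error 0.59), for Postn -1.54 (standard error 0.59) and for Ptprc -0.74 (standard error 1.03), with adjusted p of 0.999, 0.999 and 0.999.

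**Figure D4:**
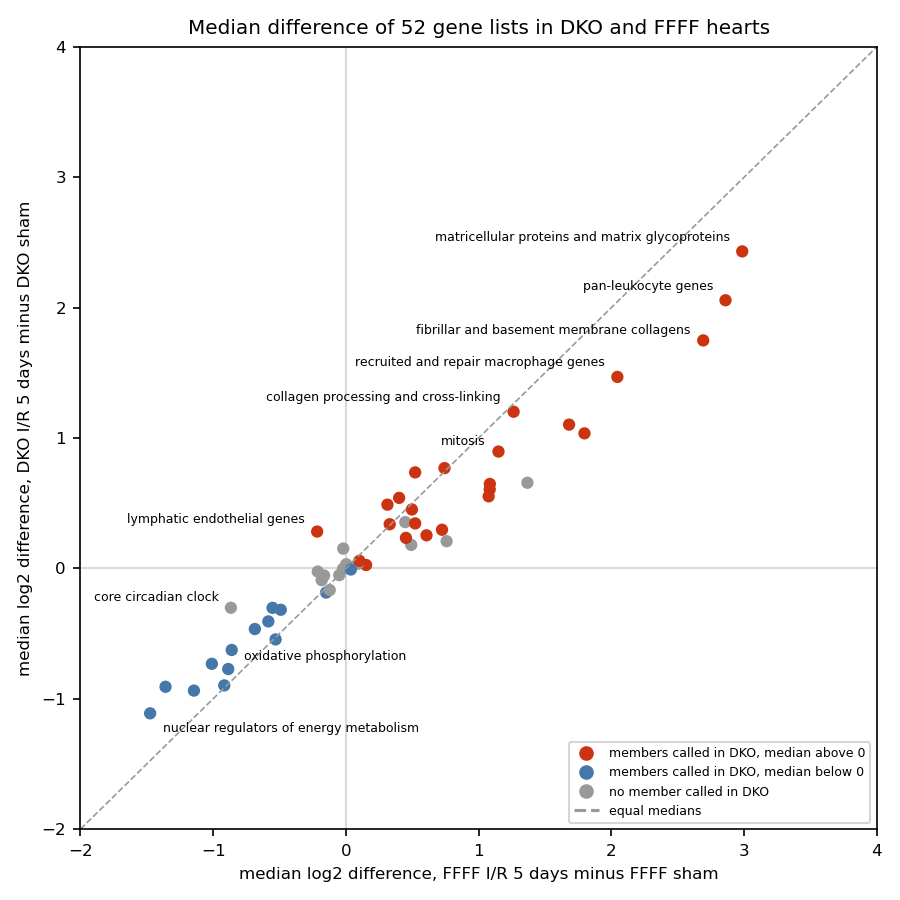
Median log2 difference between I/R 5 days and sham of 52 gene lists in FFFF hearts (horizontal axis) and DKO hearts (vertical axis), 1 point per list, red or blue where members were called in DKO, with a dashed line of equal medians. Lists with high medians, such as collagens (1.75 in DKO and 2.69 in FFFF) and pan-leukocyte genes (2.06 and 2.86), lie below the line, and no difference in response was called for any of their members.

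Of 38 lists with a called member, 30 had a median nearer to 0 in DKO than in FFFF, a description with no test of its own. The collagen median was 1.75 in DKO and 2.69 in FFFF, that of matricellular proteins 2.43 and 2.99, of recruited macrophage genes 1.47 and 2.05, of oxidative phosphorylation -0.63 and -0.86 and of nuclear energy regulators -1.11 and -1.48. Proteoglycans at 0.77 and 0.74 and mesothelial genes at 0.74 and 0.52 lay on the other side. A difference from sham also depends on the sham level. Col1a1, Col5a2, Col8a1 and Col12a1 had sham means of 9.2, 7.0, 8.1 and 4.6 in DKO and 8.1, 6.2, 7.0 and 4.4 in FFFF. Their 5-day means were 12.5, 10.4, 11.4 and 8.9 in DKO and 12.7, 10.3, 11.1 and 8.7 in FFFF. Whether the genotypes differed after sham surgery or at 5 days was not tested. FFFF hearts at 5 days had 498 features with an SD over 1, against 59 in DKO hearts of that day.

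Of single genes, A1cf (chromosome 19), an RNA-binding partner of the APOBEC1 editing enzyme known from liver and gut, came nearest to a called difference. Its sham values in DKO were 6.56, 6.99 and 6.62, and its 5-day values 3.81, 4.03 and 5.11, where the female array lay highest. Every FFFF array and every DKO array 1 day after I/R had a value between 3.88 and 4.22, so that the DKO sham hearts stood apart from every other group. A1cf fell by 2.40 (standard error 0.24, adjusted p = 0.000238) in DKO, kept that call in every fit with an array left out and in the female arrays alone, and had a difference of 0.00 in FFFF. The difference between the responses was -2.41 (standard error 0.33, adjusted p = 0.111). It passed with a variance trend (adjusted p = 0.0172), robust moderation (0.0271), array weights (0.00923), a filter on dim features (0.0387), sex as a covariate (0.0198) and without 5-day DKO replicate 3 (4.92e-06).

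Frem1 ran the other way, with a rise of 2.55 in DKO and 1.06 in FFFF, where its 5-day values were 5.16, 5.32 and 5.31, below every DKO array of that day. The difference between the responses was 1.49 (standard error 0.30, adjusted p = 0.999), and it passed without 5-day DKO replicate 3, at 1.83 (adjusted p = 0.0018). Nppa, the atrial natriuretic peptide, stood at 13.93, the highest value that any array of the table holds, in all 3 DKO 5-day arrays. DKO sham arrays were just below at 13.75, 13.68 and 13.68 and FFFF sham arrays at 12.80, 13.17 and 12.49. The response was 0.23 in DKO (adjusted p = 0.293) and 1.11 in FFFF, between values close to the upper end of the table, and the difference between the responses was -0.88 (adjusted p = 0.884). It passed without FFFF sham replicate 2 (adjusted p = 0.0163). All 3 FFFF 5-day arrays also stood at 13.93, so that neither response could be larger from its sham level. The difference between the Nppa responses therefore restates the difference between the sham arrays.

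**Figure D5:**
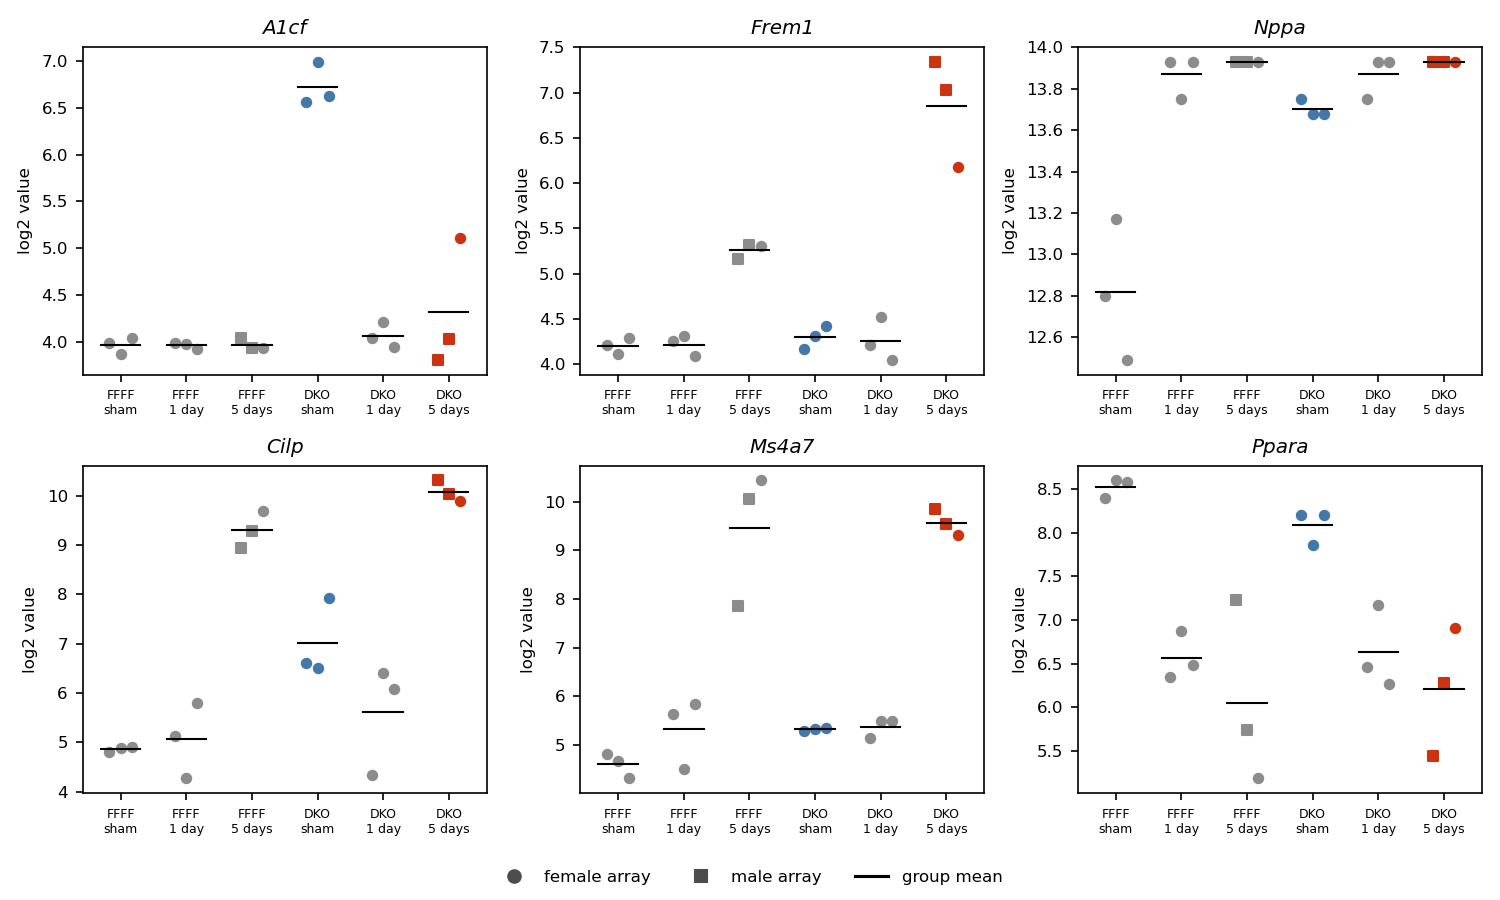
Log2 value of 6 genes on all arrays of both genotypes (vertical axis, a different range in each panel), with squares for male hearts, blue for DKO sham, red for DKO I/R 5 days, grey for other groups and a black line for each group mean. A1cf is highest in DKO sham hearts (6.56 to 6.99), Frem1 is higher at 5 days in DKO than in FFFF, and Ms4a7 and Cilp are high at 5 days and not at 1 day.

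Against DKO hearts 1 day after I/R, the 5-day hearts had 599 genes higher (2.45%) and 525 lower (2.14%), 4.59% in all. This comparison shares the 5-day arrays with the comparison above, and replicate 1 of the 1-day DKO arrays had Camk2d and Camk2g values within the FFFF range. Without that array 280 genes were called. Replicate 2 of the 1-day DKO arrays had the lowest array weight of all 18 arrays, 0.366, and without it 2041 genes were called. The 1-day values below include both arrays. The 1-day hearts themselves differed from sham at 1252 genes (5.11%), with 631 higher (2.58%) and 621 lower (2.54%). Some genes of the 5-day picture were present on day 1 and others were not. Timp1, Sprr1a and Lcn2 had differences from sham of 4.77, 6.19 and 4.94 on day 1 and of 3.66, 6.44 and 2.47 at 5 days, and between the days Timp1 differed by -1.11 (adjusted p = 0.16) and Lcn2 by -2.46 (adjusted p = 0.0439).

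Several matrix and macrophage genes were higher at 5 days than at 1 day. Ms4a7 had a difference of 0.05 from sham on day 1, 4.25 at 5 days and 4.20 between the days (adjusted p = 0.00144). Ptn, pleiotrophin, a heparin-binding growth factor, had -1.02 on day 1 and 3.71 at 5 days, with 6.67, 6.52 and 7.62 in sham and 11.23, 10.87 and 9.85 in 5-day hearts, and Cilp had -1.40 and 3.07 (adjusted p between the days 0.000906 and 0.000906). Gpnmb and Sfrp2 followed the same order, at -0.24 and 4.45 and at -0.51 and 3.62 (adjusted p between the days 0.021 and 0.006). By list, 13 of 19 collagens, 9 of 21 matricellular genes, 7 of 21 recruited macrophage genes and 6 of 22 complement genes were higher at 5 days than at 1 day, and 0 were lower. Ribosome biogenesis ran the opposite way, with 9 of 22 lower at 5 days and a median difference from sham of 0.87 on day 1 and -0.09 at 5 days. Among its members Rrp9, Nolc1 and Polr1b, which serve ribosomal RNA processing and synthesis, had 0.55, 0.71 and 0.60 on day 1 and -0.44, -0.53 and -0.62 at 5 days. Of 18 stress and fetal genes 8 were called higher than sham on day 1 and 4 at 5 days, with 3 lower and 1 higher between the days.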

How the data were processed

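Mouse left ventricular RNA was measured on 18 arrays (6 groups of 3) of type Affymetrix mogene20-st-v1, with 1 value per gene after a custom probe definition by Entrez gene. The authors deposited log2 values made by robust multi-array averaging with quantile normalization, so that every array has the same highest (13.93), lowest (3.49) and median (4.85) value. Quantile normalization ties the values of an array to each other, and changes are relative to the array as a whole. The number of arrays limits the precision, with a median standard error of 0.122 on the log2 scale. The sources used here name no genome build.

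Samples were grouped by their labels. A model of 6 groups was fitted to all 24479 features with limma 3.58.1 in R 4.3.3 (12 residual degrees of freedom, eBayes, Benjamini-Hochberg adjustment, threshold 0.05), and contrasts gave the comparisons. No filter on dim features was applied. The features carry Entrez IDs, named through RefSeq. On simulated data of DKO I/R 5 days against DKO sham (24479 features, 50 changed per size) the fit called 44% of changes of 0.5, 76% of 1 and 100% of 2 and 4, with 7 unchanged features called. The simulated noise was normal, had the same spread in every group for a given gene and held no sex effect. In the data the groups had from 16 to 498 features with an SD over 1, so that these rates need not hold there.

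Genes were named by rule: Camk2d and Camk2g, the 12 largest called rises and falls without overlap (no predicted models or receptors of smell), up to 4 members of each of 54 lists with the smallest p, genes the study names, the 5 smallest p of the response difference and the 5 largest differences between 5 days and 1 day. Col1a1, Postn, Nppb, Acta1, Ankrd1, Top2a, Cdk1, Upk1b, Myh6, Myh7 and the Mir208 genes, and defining markers at their levels, were added after their values were seen. Members, lists and tests were chosen with earlier results of these data known. A gene can stand in more than 1 list, and some genes that the rule names are not reported here.

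The alternatives were variance trend, robust moderation, gene-wise analysis of variance, array weights, other scalings, a filter on dim features, sex as a covariate, a replicate block, fewer arrays and other thresholds. Sex was read from Xist and Y-linked features.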

Additional observations from a re-analysis of the deposited data

How the results depend on the processing

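For DKO 5 days against sham, 1487 genes were called, 747 by gene-wise analysis of variance, 3825 with the compared groups alone, 4528 with array weights, 527 with sex as a covariate, 19 with the female arrays alone (chosen after seeing the data), 2323 by the methods' analysis of variance at an unadjusted p under 0.01, 175 at an adjusted p under 0.01, 580 with a floor of 1 on the log2 scale and 167 to 1623 with 1 array left out. Variance trend (1591), robust moderation (1578), the fit without DKO I/R 1 day replicate 1 (1614), the filter on dim features (2100, 16091 features kept), median centring (1487) and further quantile normalization (1487) stayed within 1.5 times. For the response difference, 0 genes were called and 1 with a variance trend, robust moderation, array weights, the filter on dim features or sex as a covariate, 207 by the methods' analysis of variance and 0 to 5 with 1 array left out. For 5 days against 1 day, 1124 were called, 691 by gene-wise analysis of variance, 58 with the compared groups alone, 280 without DKO I/R 1 day replicate 1, 2292 with array weights, 479 with sex as a covariate, 1923 by the methods' analysis of variance, 178 at an adjusted p under 0.01, 361 with the floor of 1 and 275 to 2041 with 1 array left out. The causes were not tested.

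Replicate numbers did not pair the samples. Deviations of same-numbered DKO sham and 5-day arrays correlated at -0.0439, 0.0343 and -0.194, and with the replicate block 1165, 0 and 1066 genes were called in the 3 comparisons. Of 2358 alternative values of 131 called named genes, 1697 kept direction and call, 661 kept the direction only and 0 reversed. The genes were chosen by their differences on these same arrays, so that kept directions are no independent support. The medians of 6 lists took either sign. That of the antioxidant and heme list was -0.00846, running from -0.0171 (without DKO sham replicate 2) to 0.0941 (without DKO sham replicate 1) with 1 array left out, at 0.0461 without DKO 5-day replicate 1 and at 0.104 with the female arrays alone. Over all alternatives those of B cell genes ran from -0.0488 to 0.0638, of pericyte genes from -0.322 to 0.0866, of interferon-stimulated genes from -0.0070 to 0.634, of erythroid and platelet genes from -0.142 to 0.0461 and of Schwann cell and neuron genes from -0.0323 to 0.0610.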

Other observations

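The features below were chosen after their values were seen. Between Dlk1 and Dio3 on chromosome 12, a stretch that is imprinted and rich in maternally expressed noncoding RNAs, 56 of 67 features were higher at 5 days than in sham DKO hearts, 5 rose, 0 fell and 20 were higher without overlap, with a median difference of 0.08 in DKO and 0.09 in FFFF hearts. Of all features 3.23% rose, 2.84% fell and 14.8% were higher without overlap. Meg3, the long noncoding RNA of the locus, had 5.84, 5.84 and 6.34 after sham surgery and 7.81, 8.12 and 7.57 at 5 days and rose by 1.82 (standard error 0.27, adjusted p = 0.00378). Rian, the host of the small nucleolar RNAs, rose by 1.69 (standard error 0.41, adjusted p = 0.0307), and the small nucleolar RNA genes AF357355, AF357425 and AF357426 by 3.99, 2.15 and 0.85 (limma's adjusted p = 0.00425, 0.0257 and 0.022). Rian, AF357425 and AF357426 lost their calls with sex as a covariate (limma's adjusted p = 0.134, 0.131 and 0.12) and when any array of the groups other than 5-day replicate 3 was left out, and in the female arrays alone AF357355 and AF357426 had differences of 2.46 and 0.29. At 1 day 1 of the 67 features was called. None of the 52 microRNA features of the stretch passed, although 44 were above 0.

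Over all features 3.23% rose and 2.84% fell. Of 539 microRNA gene features, 2 rose and 3 fell (median -0.0028). Beside Mir208a these were Mir3095, which rose by 0.91 (standard error 0.17, adjusted p = 0.0104), Mir692-1, which rose by 0.96 (standard error 0.25, adjusted p = 0.0394), Mir707, which fell by 0.79 (standard error 0.15, adjusted p = 0.0125), and Mir1191, which fell by 0.62 (standard error 0.16, adjusted p = 0.0403). Mir27b, which did not pass (adjusted p = 0.0658), had 7.83, 7.00 and 7.50 after sham surgery and 8.99, 8.32 and 8.66 at 5 days without overlap.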
